A study of Nannochloropsis oceanica with 8 samples.

Results

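Wide chromatin domains were examined in *Nannochloropsis oceanica* IMET1, a single-celled marine alga known for storing oil. Peaks counted as wide when their end minus start was 1500 bp or more, and 251 of the 6185 deposited peaks (4.06%) met this. The other 5934 peaks are called narrow. Both deposited tables list the same peaks. Chromatin was immunoprecipitated with an antibody to H3K9me2 or with one labelled Kbu and then sequenced (ChIP-seq). The 4 groups were H3K9me2 after 24 h at 0.04% CO2 (low), H3K9me2 after 24 h at 5% CO2 (high), Kbu after 24 h at low CO2 and Kbu after 24 h at high CO2, with 2 libraries each. All cultures were of strain IMET1, with no genetic change named in the labels, and had spent their first hour at high CO2, where the high-CO2 cultures stayed. The design addresses how CO2 supply changes the genomic maps of both marks.

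H3K9me2 is the dimethylation of lysine 9 on histone H3, a mark found at repressed and repeat-rich chromatin in many plants, animals and fungi. Kbu is the usual abbreviation of lysine butyrylation, in which a short fatty acyl group is carried over from butyryl-CoA to a lysine. In the organisms where it has been mapped, histone butyrylation, like acetylation, lies mostly at active genes, and its donor ties it to fatty acid metabolism. Algae respond to a drop in CO2 by inducing carbon-concentrating mechanisms, so a switch of CO2 supply alters both carbon uptake and lipid metabolism.

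The value at each peak was the ChIP pileup, the height of stacked reads as the authors deposited it. The sources used here do not say how it was taken over the peak. In 100% of peaks it was within 0.02 of a whole number of read steps. A height at 1 position has that property, and a mean over many positions in general does not. A highest point tends to be higher in a wider interval, so its part in the differences by width cannot be told apart from a higher signal. For levels, it was divided by the lowest control value of the same library, taken here as that library's genome background, and a level of 1 is then that background. At the median wide peak the pileup was worth 90 and 49 reads in the low-CO2 H3K9me2 libraries and 56 and 32 in the high-CO2 ones. In Kbu it was worth 222 and 138 reads at low CO2 and 995 and 719 at high CO2. These numbers bring a counting error of 10.5% to 17.7% in the H3K9me2 libraries and of 3.17% to 8.51% in the Kbu libraries, before any other error. How deeply each library was sequenced in all is unknown. The labels describe 3 cultures per CO2 level without tying libraries to them, so p-values measure the spread between libraries, which may be technical. In the H3K9me2 fits that spread was mostly shared over peaks, so a p-value says little about the replicates of its own peak. Each H3K9me2 library is labelled with its own antibody lot, numbered in sequence, which may not reflect separate lots. Lot, as labelled, cannot be told apart from library.

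The median wide peak spanned 1685 bp, with quartiles at 1577 and 1912 bp and a maximum of 4291 bp, against a median of 1016.5 bp and a range of 275 to 1499 bp in narrow peaks. Together they covered 458998 bp, or 7.46% of all peak sequence. They lay on 29 of 30 chromosomes and made up a median of 3.98% of the peaks of a chromosome. Their share was highest on chromosome 26, where 12 of 122 peaks were wide (9.84%), followed by chromosome 22 with 12 of 136 (8.82%). Chromosome 30 had 75 peaks and no wide one. Wide peaks stood apart from their neighbours by a median gap of 2419 bp, against 2030 bp for narrow peaks. A wide peak was the next neighbour of 24 wide peaks (9.56%) and of 466 narrow peaks (7.85%). At the ends of the peak series of each chromosome lay 1 wide peak (0.398%) and 59 narrow peaks (0.994%). The sources used here name no genome build, and no gene annotation of the nuclear chromosomes was used, so positions are those of the files and no genes are named.

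Both marks stood higher at wide than at narrow peaks, and for H3K9me2 this was mainly so at low CO2. The median H3K9me2 level at low CO2 was 2.04 ± 0.12 at wide peaks and 1.57 ± 0.11 at narrow peaks (SD, n = 2). At high CO2 it was 1.51 ± 0.12 at wide peaks and 1.39 ± 0.069 at narrow peaks (SD, n = 2). The median Kbu level at low CO2 was 3.39 ± 0.051 at wide peaks and 2.56 ± 0.070 at narrow peaks (SD, n = 2). At high CO2 it was 4.52 ± 0.0092 at wide peaks and 3.683 ± 2.07e-05 at narrow peaks (SD, n = 2). Within each library the difference of medians had the same sign. On the log2 scale it was 0.36 and 0.35 for H3K9me2 at low CO2, 0.07 and 0.13 for H3K9me2 at high CO2, 0.41 and 0.38 for Kbu at low CO2, and 0.29 and 0.29 for Kbu at high CO2. No test was run on these differences. Peak widths come from peak calls. The sources used here do not say on which libraries these were made, so width and level cannot be taken as independent.

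The control background was higher at wide peaks too. In the low-CO2 H3K9me2 columns it stood at 5.29 ± 0.055 times its lowest value at wide peaks and 3.48 ± 0.014 times at narrow peaks (SD, n = 2). In the high-CO2 H3K9me2 columns it stood at 1.39 ± 0.025 and 1.25 ± 0.025 times. The low-CO2 Kbu columns were nearly the same as the H3K9me2 ones, at 5.31 ± 0.054 and 3.49 ± 0.031 times (SD, n = 2). Whether libraries of 1 CO2 level shared a control was not examined, so these SDs may not measure a spread between controls. Divided by the control of the same peak, the low-CO2 pileup lay below 1 at the median peak. It was 0.389 ± 0.036 at wide and 0.456 ± 0.029 at narrow peaks for H3K9me2, and 0.630 ± 0.020 at wide and 0.737 ± 0.021 at narrow peaks for Kbu (SD, n = 2). For H3K9me2 at high CO2 it was 1.08 ± 0.087 at wide and 1.11 ± 0.093 at narrow peaks (SD, n = 2). On this measure the difference between wide and narrow peaks turned negative for H3K9me2 at low CO2 (-0.19), for H3K9me2 at high CO2 (-0.030) and for Kbu at low CO2 (-0.20) on the log2 scale. It stayed positive for Kbu at high CO2 (0.13), where the median pileup over control was 3.11 ± 0.11 at wide peaks and 2.82 ± 0.10 at narrow peaks (SD, n = 2). The part of the control in the level difference was not tested further.

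**Figure D1:**
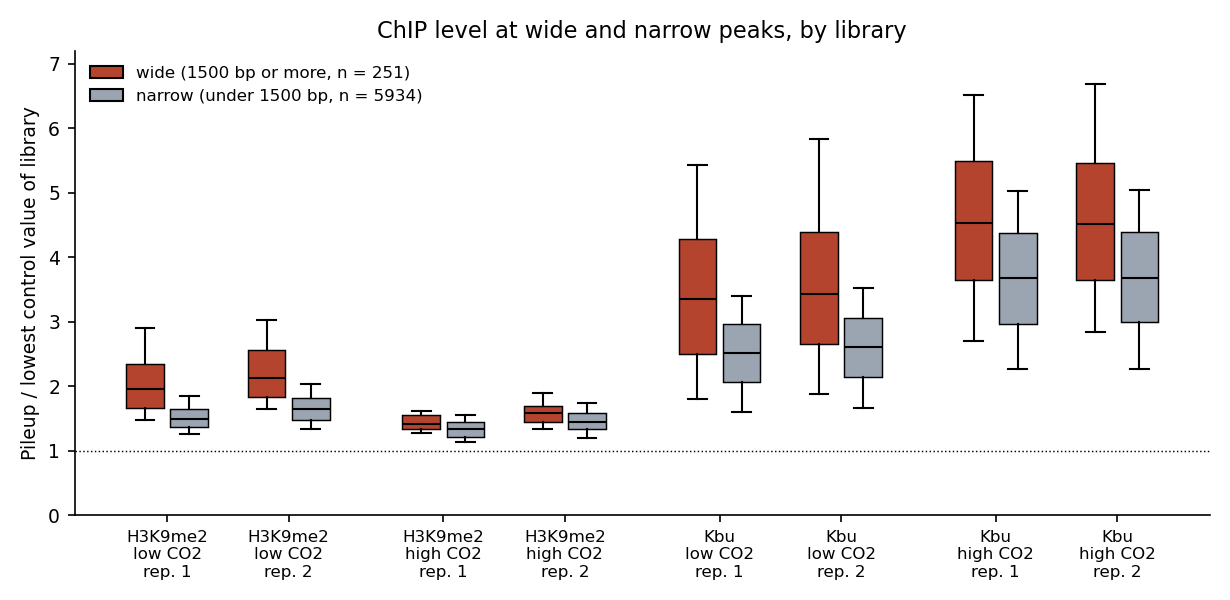
ChIP pileup over the lowest control value of the library (y axis) at wide (red) and narrow (grey) peaks in each of the 8 libraries. Boxes give the median and quartiles, whiskers the 10% and 90% points, and the dotted line marks a level of 1. H3K9me2 at low CO2 had medians of 1.95 and 2.12 at wide peaks, against 1.50 and 1.65 at narrow peaks, and the wide boxes of high CO2 lay lower, at 1.42 and 1.59.

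Over the lowest control value, Kbu reached a level of 2 at most wide peaks, and H3K9me2 did so at many of them at low CO2. Over the control of the same peak most low-CO2 pileups lay below 1 in either mark. A level of at least 2 in both libraries was reached by H3K9me2 at 105 wide peaks (41.8%) at low CO2 and at 4 (1.59%) at high CO2. Among narrow peaks this was so at 212 (3.57%) at low CO2 and 6 (0.101%) at high CO2. Kbu reached the same level at 210 wide peaks (83.7%) at low CO2 and 241 (96.0%) at high CO2, against 4443 (74.9%) and 5492 (92.6%) of the narrow peaks. At low CO2, 103 wide peaks (41.0%) had both marks at this level, 107 had Kbu without H3K9me2, 2 had H3K9me2 without Kbu and 39 had neither. At high CO2, 4 had both, 237 had Kbu without H3K9me2, none had H3K9me2 alone and 10 had neither. Thus all but 2 of the wide peaks with H3K9me2 at this level under low CO2 held Kbu there as well. The 4 wide peaks that reached it at high CO2 also did so at low CO2.

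Across width classes, H3K9me2 at low CO2 was higher in wider classes up to 2000 bp. Its median level was 1.41 ± 0.091 in peaks under 500 bp, 1.49 ± 0.11 from 500 to under 700 bp and 1.54 ± 0.090 from 700 to under 900 bp (SD, n = 2). It was 1.55 ± 0.075 in peaks from 900 to under 1100 bp and 1.62 ± 0.11 from 1100 to under 1300 bp (SD, n = 2). It was 1.77 ± 0.075 from 1300 to under 1500 bp, 2.07 ± 0.14 from 1500 to under 1700 bp, 2.08 ± 0.059 from 1700 to under 2000 bp and 1.93 ± 0.15 at 2000 bp or more (SD, n = 2). At high CO2 the same mark stood between 1.31 and 1.58 in every class. Kbu at high CO2 was 1.79 ± 0.024 in peaks under 500 bp, 4.22 ± 0.0098 from 1100 to under 1300 bp and 4.63 ± 0.063 at 2000 bp or more (SD, n = 2). Kbu at low CO2 was highest from 1700 to under 2000 bp, at 3.79 ± 0.054, and was 3.01 ± 0.21 in the 52 peaks of 2000 bp or more (SD, n = 2). The low-CO2 control was 1.64 times its lowest value in peaks under 500 bp and 5.54 times from 1500 to under 1700 bp, in the H3K9me2 columns.

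**Figure D2:**
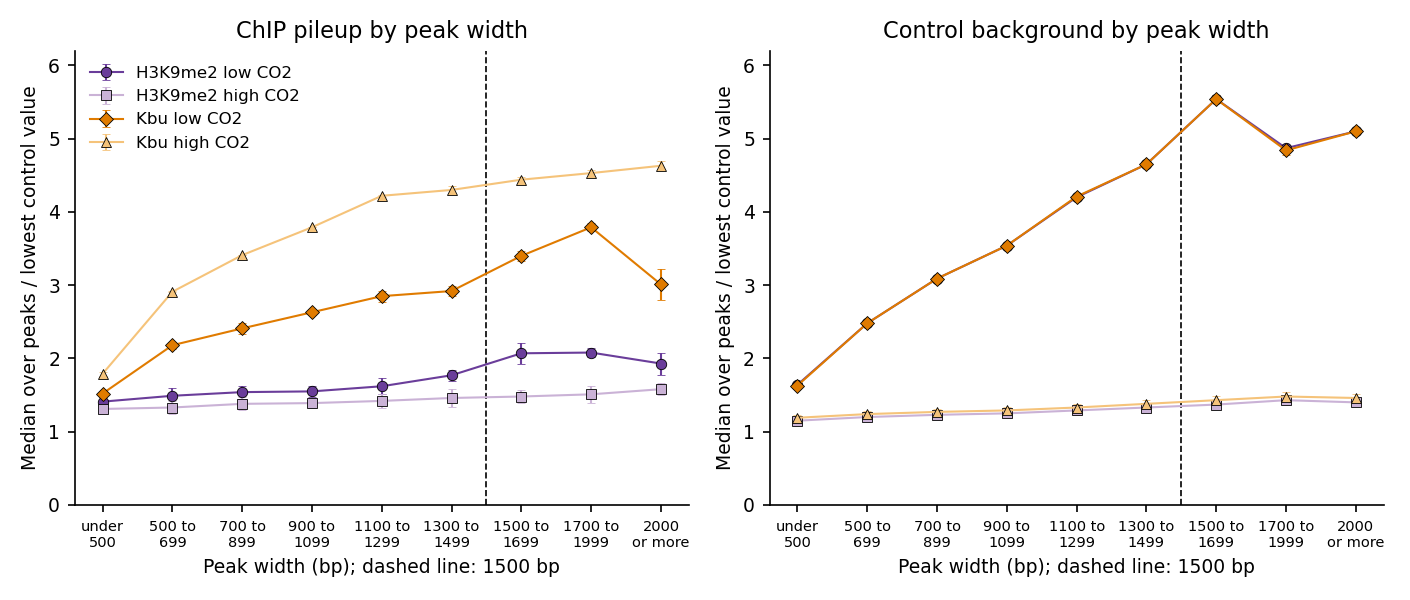
Median ChIP pileup (left) and median control background (right) over the lowest control value of the library (y axes), by peak width in bp (x axis), as the mean of 2 libraries with SD bars. The low-CO2 H3K9me2 line goes from 1.41 in the narrowest class to 1.77 just under 1500 bp and 2.07 in the first class above the dashed line at 1500 bp. In the right panel the control lines of both marks at low CO2 coincide and reach 5.54 from 1500 to under 1700 bp, while those at high CO2 stay between 1.15 and 1.48.

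The H3K9me2 pileup was higher at low than at high CO2 in many wide peaks. For this test pileups were scaled to 1 geometric mean per library, so a change is relative to the bulk of the peaks, and limma was fitted to all 6185 peaks (n = 2 per group, two-sided, Benjamini-Hochberg adjusted p under 0.05). Of the 251 wide peaks, 70 (27.9%) rose and 3 (1.20%) fell, against 3.99% and 1.03% of all peaks tested. Among narrow peaks 177 (2.98%) rose and 61 (1.03%) fell. The median log2 change was 0.23 over wide peaks and -0.02 over all peaks, and 190 wide peaks (75.7%) lay above 0. The 70 peaks that rose changed by 0.45 to 1.39 on the log2 scale and lay on 27 chromosomes. By width, the share that rose was 8.18% from 1300 to under 1500 bp, 27.3% from 1500 to under 1700 bp, 35.8% from 1700 to under 2000 bp and 19.2% at 2000 bp or more.

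These counts were lower with 1 library left out. Without low-CO2 replicate 1, 42 wide peaks rose (16.7%, against 2.30% of all peaks), and without high-CO2 replicate 1, 40 rose (15.9%, against 2.55% of all). The 3 falls became 1 (0.398%) without low-CO2 replicate 1 and 1 (0.398%) without low-CO2 replicate 2, against 0.679% and 0.259% of all peaks. With libraries scaled to their lowest control value, 78 wide peaks rose (31.1%, against 4.92% of all) and 0 fell in limma, where 1 was lower at an unadjusted p under 0.05. Under that scaling the median log2 change of all peaks was 0.17 for H3K9me2, in place of -0.02, and -0.52 for Kbu, in place of -0.03. The control moved with the result. At the 70 peaks that rose, the median control at low CO2 was 6.64 times its minimum, and at the 178 wide peaks that did not pass it was 5.03 times. The high-CO2 control stood at 1.46 and 1.37 times. The part of the control in the pileup change was not tested.

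The wide peak with the largest H3K9me2 rise was peak2482 (chromosome 2, 516167 to 517825, 1658 bp). Its H3K9me2 level was 4.75 and 4.94 at low CO2, against 1.42 and 1.69 at high CO2. The low-CO2 libraries thus stood well above both high-CO2 libraries, and the pileup rose by 1.39 on the log2 scale (SE 0.15, limma adjusted p = 2.5e-15). The control at peak2482 was 5.2 times its lowest value at low CO2 and 1.48 times at high CO2. Over that control the H3K9me2 pileup did not rise, with 0.909 and 0.954 at low CO2, against 0.951 and 1.15 at high CO2. The authors' normalised ratio of pileup to control, which carries 1 factor per library, rose by 1.23 (limma adjusted p = 6.9e-11). The Kbu level of peak2482 was 4.96 and 4.32 at low CO2, against 5.16 and 5.31 at high CO2. Relative to the bulk this was a Kbu rise of 0.32 (SE 0.08, limma adjusted p = 0.0084), and relative to the lowest control value the change was -0.17.

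Next came peak34 (chromosome 1, 211142 to 212680, 1538 bp), 54 bp from its neighbour, the smallest gap of any wide peak. Here H3K9me2 was 4.27 and 4.51 at low CO2, against 1.47 and 1.49 at high CO2. The groups were far apart and the replicates close, and the log2 change was 1.31 (SE 0.15, limma adjusted p = 1.7e-14). The control at peak34 was 2.80 times its lowest value at low CO2 and 1.49 times at high CO2.

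Peak3526 (chromosome 25, 242064 to 243752) had H3K9me2 levels of 4.06 and 3.60 at low CO2, against 1.40 and 1.34 at high CO2, and rose by 1.23 (SE 0.15, limma adjusted p = 4.2e-13). It gained Kbu as well, with 5.19 and 5.04 at low CO2, against 3.62 and 4.06 at high CO2, up by 0.91 (SE 0.07, limma adjusted p = 8.7e-06). Both marks at this peak were higher in each low-CO2 library than in either high-CO2 library. The H3K9me2 control there was 7.12 times its lowest value at low CO2 and 1.55 times at high CO2. Over that control the H3K9me2 pileup was lower at low CO2 (0.57 and 0.506, against 0.876 and 0.886). The authors' H3K9me2 ratio rose by 0.71 (limma adjusted p = 0.0011).

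Peak1077 (chromosome 13, 72464 to 74097) went the other way in Kbu. Its H3K9me2 level was 4.36 and 4.33 at low CO2, against 1.80 and 1.49 at high CO2, up by 1.16 (SE 0.15, limma adjusted p = 1.5e-11). Its Kbu level was 2.45 and 2.68 at low CO2, against 4.40 and 4.59 at high CO2, and changed by -0.30 (SE 0.07, limma adjusted p = 0.0064). Neither mark's groups overlapped. The Kbu change minus the H3K9me2 change came to -1.48 on the log2 scale (SE 0.16, limma interaction adjusted p = 1.5e-05). The H3K9me2 control at peak1077 was 4.99 times its lowest value at low CO2 and 1.58 times at high CO2. Over that control the H3K9me2 pileup was lower at low CO2 (0.88 and 0.864, against 1.15 and 0.935). The authors' H3K9me2 ratio rose by 1.07 (limma adjusted p = 2.9e-08).

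Of the 3 wide peaks that fell in H3K9me2, peak2064 (chromosome 18, 63784 to 65320) changed most. Its levels were 1.13 and 1.34 at low CO2, against 1.68 and 1.99 at high CO2. Both low-CO2 libraries lay below both high-CO2 libraries. The log2 change was -0.73 (SE 0.15, limma adjusted p = 0.00013), and with libraries scaled to their lowest control value the adjusted p was 0.074. Peak4488 (chromosome 4, 133382 to 135611) had 1.39 and 1.39 at low CO2, against 1.55 and 1.99 at high CO2, and changed by -0.51 (SE 0.15, limma adjusted p = 0.019). Peak5372 (chromosome 6, 1316317 to 1317911) had 1.35 and 1.43 at low CO2, against 1.40 and 2.04 at high CO2, and changed by -0.46 (SE 0.15, limma adjusted p = 0.048). At peak5372 the levels of the groups overlapped before scaling. Without high-CO2 replicate 2 the limma adjusted p was 0.35 at peak4488 and 0.68 at peak5372. Without low-CO2 replicates 1 and 2 it was 0.056 and 0.25 at peak4488, and 0.16 and 0.27 at peak5372.

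The Kbu pileup changed in both directions at wide peaks. Centred on the bulk, 98 wide peaks (39.0%) rose at low CO2, against 21.8% of all peaks, and 75 (29.9%) fell, against 25.2% of all peaks (limma, adjusted p under 0.05, n = 2 per group). Among narrow peaks 1251 (21.1%) rose and 1482 (25.0%) fell. The median log2 change was 0.05 over wide peaks and -0.03 over all peaks, and single wide peaks ranged from -1.59 to 2.80. With libraries scaled to their lowest control value, which does not centre on the bulk, 33 wide peaks rose (13.1%, against 3.61% of all) and 172 fell (68.5%, against 83.7% of all). On that scale the median change was -0.44 over wide peaks and -0.52 over all peaks. The 75 falls became 49 (19.5%, against 13.4% of all) without high-CO2 replicate 1 and 43 (17.1%, against 13.6% of all) without high-CO2 replicate 2.

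The share of peaks with a Kbu rise also varied with width. It was 14.1% from 1100 to under 1300 bp and 22.3% from 1300 to under 1500 bp, then 40.2% from 1500 to under 1700 bp and 46.3% from 1700 to under 2000 bp. It was 43.9% in the narrowest class, under 500 bp, where the median Kbu level was 1.52 at low CO2 and 1.79 at high CO2. In peaks of 2000 bp or more 26.9% rose and 38.5% fell. The wide peaks that rose had median Kbu levels of 4.57 at low CO2 and 4.27 at high CO2, and those that fell had 2.38 at low CO2 and 4.65 at high CO2. The low-CO2 control was similar at both, at 5.27 and 5.05 times its lowest value.

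**Figure D3:**
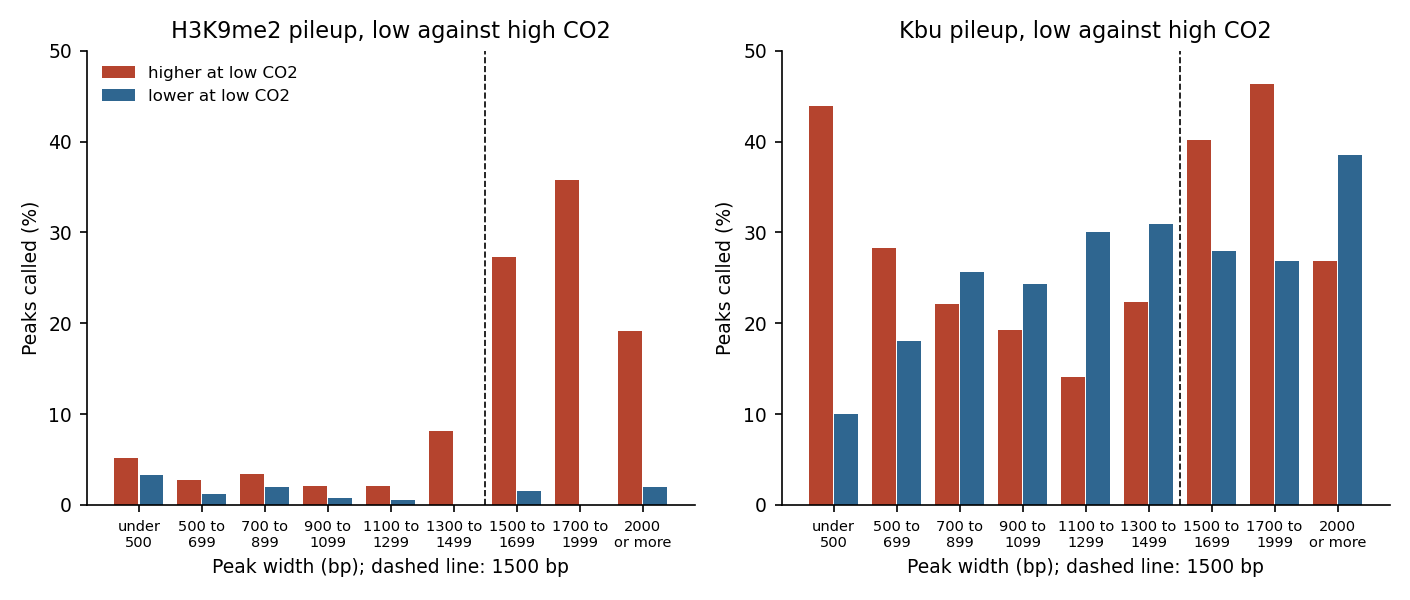
Share of peaks in each width class (x axis, bp) whose pileup was called higher (red) or lower (blue) at low against high CO2 by limma (y axis, percent of the class), for H3K9me2 (left) and Kbu (right), centred on the bulk. H3K9me2 rises reach 27.3% and 35.8% in the first 2 classes above the dashed line at 1500 bp, against 2.04% to 8.18% in the classes from 500 bp to under 1500 bp. Without centring on the bulk, 33 wide peaks rose (13.1%, against 3.61% of all) and 172 fell (68.5%, against 83.7% of all) in Kbu.

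The 4 largest Kbu rises were at wide peaks with levels of 2.11 or less at high CO2, which follows in part from picking them by their change. The largest was at peak3461 (chromosome 24, 592642 to 595569, 2927 bp), with Kbu levels of 5.19 and 5.12 at low CO2, against 1.03 and 0.941 at high CO2. The pileup rose by 2.80 on the log2 scale (SE 0.09, limma adjusted p = 4.4e-08). It had the lowest Kbu of any wide peak at high CO2, at the genome background, and its level at low CO2 was above the wide-peak median of 3.39. Its H3K9me2 level was 2.30 and 2.69 at low CO2, against 1.52 and 1.69 at high CO2, a change that did not pass (log2 0.41, limma adjusted p = 0.081).

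The next 2 lay 30657 bp apart on chromosome 20. Peak2787 (210546 to 212258) had Kbu levels of 4.08 and 3.90 at low CO2, against 1.22 and 1.36 at high CO2, up by 2.07 (SE 0.09, limma adjusted p = 1.6e-07). Peak2792 (242915 to 244632) had 5.19 and 4.99 at low CO2, against 1.88 and 2.10 at high CO2, up by 1.83 (SE 0.08, limma adjusted p = 1.6e-07). Neither peak showed any overlap between the groups. H3K9me2 at peak2792 was 2.78 and 2.73 at low CO2, against 1.40 and 1.54 at high CO2, and rose by 0.68 (SE 0.15, limma adjusted p = 0.00029). At peak2787 it was 3.28 and 2.38 at low CO2, against 1.78 and 1.74 at high CO2, with replicates further apart (log2 0.45, limma adjusted p = 0.049). That call was lost without high-CO2 replicates 1 or 2 or low-CO2 replicate 1 (adjusted p = 0.11, 0.44 and 0.78).

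Peak814 (chromosome 11, 1152372 to 1153910) had the next largest rise. Kbu was 4.93 and 4.97 at low CO2, against 2.00 and 2.11 at high CO2, up by 1.74 (SE 0.07, limma adjusted p = 1.6e-07). H3K9me2 was 2.21 and 2.17 at low CO2, against 1.27 and 1.69 at high CO2, and did not pass (limma adjusted p = 0.17). All 4 Kbu gains also passed with libraries scaled to their lowest control value, which leaves out the control of the peak. At peak814 the Kbu control was 4.12 times its lowest value at low CO2 and 1.41 times at high CO2. Over that control Kbu was lower at low CO2 (1.18 and 1.22, against 1.38 and 1.54). It was higher at peak2792 (1.72 and 1.68, against 1.33 and 1.56). The same held at peak2787 (2.26 and 2.15, against 1.01 and 1.11) and peak3461 (3.23 and 3.23, against 0.74 and 0.716). The authors' ratio rose at all 4 (limma).

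The 4 largest Kbu falls were at peaks with Kbu levels of 3.70 or more at high CO2, where the wide-peak median was 4.52. That level is no separate trait of these peaks, which were picked by their change. Peak2729 (chromosome 2, 1549565 to 1551183) had 1.13 and 1.19 at low CO2, against 5.14 and 5.09 at high CO2, and fell by 1.59 on the log2 scale (SE 0.08, limma adjusted p = 3.1e-07). Peak3847 (chromosome 28, 81058 to 82866) had 1.78 and 1.76 at low CO2, against 7.40 and 7.40 at high CO2, and fell by 1.53 (SE 0.07, limma adjusted p = 1.6e-07). In both, replicates were nearly equal and the groups far apart.

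Peak5367 (chromosome 6, 1281463 to 1283917, 2454 bp) had Kbu levels of 2.40 and 2.39 at low CO2, against 9.67 and 9.71 at high CO2, and fell by 1.49 (SE 0.06, limma adjusted p = 1.6e-07). Peak2048 (chromosome 17, 861680 to 863613) had 1.19 and 0.944 at low CO2, against 3.70 and 3.97 at high CO2, and fell by 1.30 (SE 0.12, limma adjusted p = 1.9e-05). H3K9me2 did not pass at any of these 4 peaks, with log2 changes from -0.33 at peak3847 to 0.14 at peak2048 and adjusted p from 0.24 to 0.96 (limma). The low-CO2 Kbu control at these 4 peaks stood at 5.46 to 12.9 times its lowest value, highest at peak5367. Peak5367 lay 32400 bp from peak5372, which fell in H3K9me2.

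**Figure D4:**
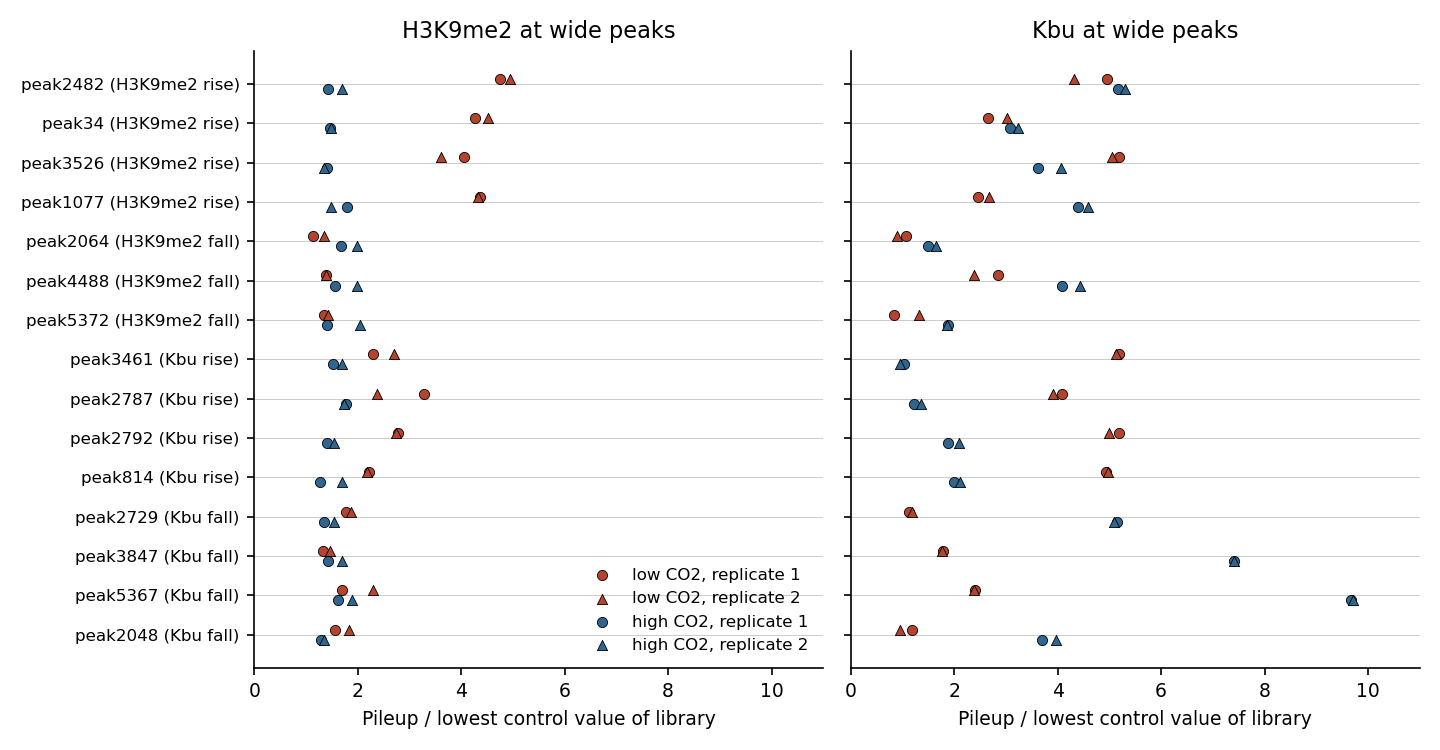
Level of H3K9me2 (left) and Kbu (right) in every library, as pileup over the lowest control value (x axes), at the wide peaks with the largest called rises and falls of either mark (y axis). Red points are low CO2, blue points high CO2, circles replicate 1 and triangles replicate 2. The 4 peaks with the largest H3K9me2 rises sit between 3.60 and 4.94 at low CO2 and between 1.34 and 1.80 at high CO2, while Kbu at the 4 largest gains sits between 3.90 and 5.19 at low CO2 and between 0.941 and 2.11 at high CO2.

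Many wide peaks rose in both marks. On the pileup relative to the bulk, 51 wide peaks (20.3%) rose in both, which was 72.9% of the 70 H3K9me2 rises and 52.0% of the 98 Kbu rises. Among narrow peaks 121 (2.04%) rose in both, which was 68.4% of their 177 H3K9me2 rises and 9.67% of their 1251 Kbu rises. For comparison, Kbu rose at 39.0% of all wide and 21.1% of all narrow peaks. The share of H3K9me2 rises with a Kbu rise was thus similar in wide and narrow peaks. H3K9me2 rises went with Kbu falls at 6 further wide peaks (2.39%) and at 7 narrow peaks (0.118%). The opposite pairing was found at 0 wide and 6 narrow peaks (0.101%). None of the 3 H3K9me2 falls passed in Kbu (limma), with log2 changes from -0.31 to -0.18. Joint rises numbered 30 without H3K9me2 high-CO2 replicate 1 and 35 to 53 with any other single library left out. They numbered 23 with libraries scaled to their lowest control value. Joint shares over all peaks were not computed for these alternatives. The log2 levels of the marks correlated across the 251 wide peaks at r = 0.59 at low CO2 and 0.02 at high CO2, and across the 5934 narrow peaks at 0.39 at low CO2 and 0.16 at high CO2. Peaks of 1 library share its depth and control, and no p is given for these values.

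The CO2 change was compared between the marks by the interaction term over all 8 libraries. It was more positive in Kbu at 22 wide peaks (8.76%), against 5.50% of all peaks, and more positive in H3K9me2 at 51 (20.3%), against 6.22% of all peaks (limma, adjusted p under 0.05). With libraries scaled to their lowest control value these counts were 4 (1.59% of wide peaks, against 0.437% of all peaks) and 216 (86.1% of wide peaks, against 78.8% of all peaks), and the median difference of all peaks was -0.69 on the log2 scale, in place of -0.0059. The 22 became 10 to 12 (3.98% to 4.78%, against 2.10% to 2.38% of all peaks) without any one of the Kbu libraries. The 51 became 32 (12.7%, against 2.36% of all) without Kbu high-CO2 replicate 1, 33 (13.1%, against 2.47% of all) without replicate 2 and 32 (12.7%, against 2.89% of all) without Kbu low-CO2 replicate 2.

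**Figure D5:**
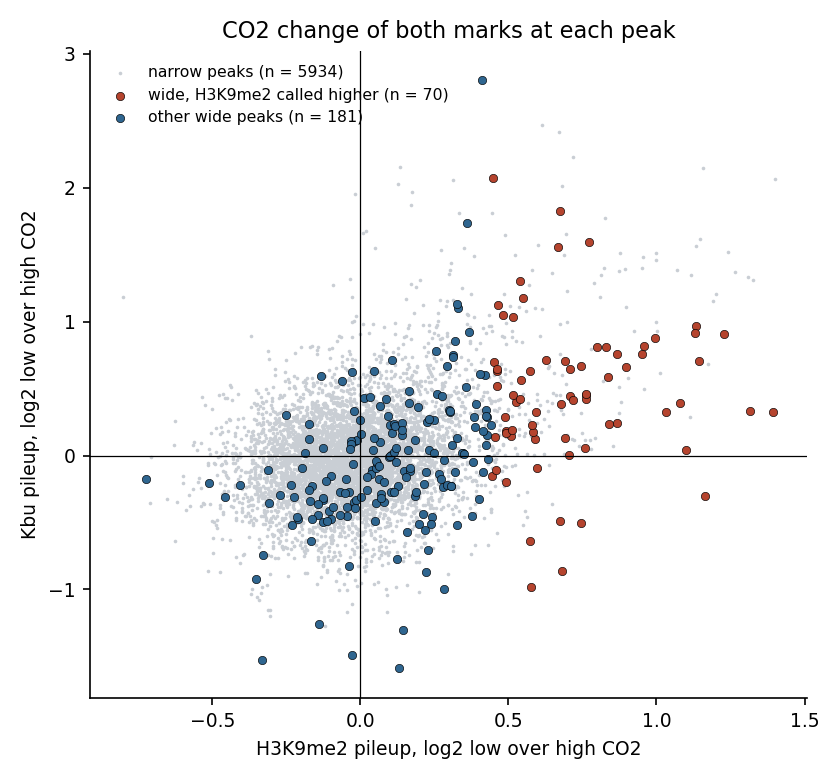
Log2 change of the pileup from low over high CO2 for H3K9me2 (x axis) and Kbu (y axis), 1 point per peak, with libraries scaled to 1 geometric mean. Narrow peaks are grey, wide peaks with a called H3K9me2 rise are red and other wide peaks blue. Most red points lie above 0 for Kbu, 60 of 70, and the points below include peak1077, while the blue point at the top is peak3461.

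The wide peaks with the highest levels differed by mark. The mean H3K9me2 level at low CO2 was highest at peak2254 (chromosome 19, 241503 to 243076), with 6.79 and 8.49 at low CO2, against 3.81 and 4.23 at high CO2. At peak4256 (chromosome 3, 1023007 to 1024806) it was 5.81 and 6.50 at low CO2, against 3.40 and 3.63 at high CO2. At peak6010 (chromosome 9, 418238 to 420179), which had the highest mean at high CO2, it was 5.36 and 6.07 at low CO2, against 4.29 and 4.13 at high CO2. All 3 had H3K9me2 levels of 3.40 or more in every library, and each held Kbu at levels between 4.01 and 5.92 in all Kbu libraries.

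Kbu at low CO2 was highest at peak5248 (chromosome 6, 698863 to 700540), with 10.9 and 10.3 at low CO2, against 6.52 and 6.74 at high CO2. At peak3549 (chromosome 25, 357501 to 359883) it was 10.6 and 10.6 at low CO2, against 8.20 and 8.77 at high CO2. Kbu at high CO2 was highest at peak5642 (chromosome 7, 1188247 to 1189763), with 7.67 and 7.60 at low CO2, against 10.6 and 10.9 at high CO2. The low-CO2 control at these 3 peaks was also high, at 8.82, 11.2 and 9.96 times its lowest value in the Kbu columns.

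The 5 widest peaks did not have the strongest marks. The widest, peak2070 (chromosome 18, 107772 to 112063, 4291 bp), had Kbu at 2.56 and 2.76 at low CO2, against 4.16 and 3.89 at high CO2, and H3K9me2 at 1.89 and 1.86 at low CO2, against 1.55 and 2.29 at high CO2. Neither mark passed there (limma adjusted p = 0.32 in Kbu and 0.58 in H3K9me2). Peak1953 (chromosome 17, 425737 to 429085, 3348 bp) had Kbu at 3.71 and 4.35 at low CO2, against 5.86 and 6.49 at high CO2. Peak83 (chromosome 1, 443805 to 447048) had 2.77 and 2.96 at low CO2, against 4.79 and 5.04 at high CO2. Peak5371 (chromosome 6, 1309893 to 1313017) was poor in Kbu, with 1.24 and 1.29 at low CO2, against 2.27 and 2.36 at high CO2, and lay 3300 bp from peak5372. Peak3512 (chromosome 25, 176845 to 179840) had 2.74 and 3.26 at low CO2, against 5.53 and 5.19 at high CO2. Relative to the bulk, Kbu fell at peak83 (log2 -0.27, limma adjusted p = 0.0083), peak5371 (-0.35, 0.012) and peak3512 (-0.33, 0.0066). At peak1953 the Kbu change did not pass (limma adjusted p = 0.25). In all 5, H3K9me2 stayed between 1.42 and 2.29 in every library, and its change did not pass (limma adjusted p = 0.28 to 0.98).

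Around the limit of 1500 bp, peak1844 (chromosome 16, 775207 to 776707, 1500 bp) had H3K9me2 at 2.60 and 3.21 at low CO2, against 1.35 and 1.59 at high CO2. Peak502 (chromosome 10, 710842 to 712345, 1503 bp) had 2.63 and 3.12 at low CO2, against 1.40 and 1.59 at high CO2. Just under the limit, at 1499 bp, peak674 (chromosome 11, 501656 to 503155) had 1.67 and 1.56 at low CO2, against 1.47 and 1.54 at high CO2, and peak2015 (chromosome 17, 701390 to 702889) had 2.45 and 2.56 at low CO2, against 1.47 and 1.54 at high CO2.

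The authors' normalised value, which divides each pileup by its control, gave another picture of the same peaks. By limma on that ratio, 39 wide peaks (15.5%) rose in H3K9me2 at low CO2, against 24.5% of all peaks, and 61 (24.3%) fell, against 12.1% of all peaks. In Kbu 55 (21.9%) rose, against 40.0% of all peaks, and 137 (54.6%) fell, against 30.4% of all peaks. The median log2 change of the ratio was -0.12 in H3K9me2 and -0.27 in Kbu over wide peaks, against 0.08 and 0.07 over all peaks. Of the 70 H3K9me2 rises on the pileup, 19 rose, 6 fell and 45 did not pass on the ratio. Of the 98 Kbu rises on the pileup, 44 rose, 24 fell and 30 did not pass, while 63 of the 75 Kbu falls fell on both. Across wide peaks the change of the ratio correlated with the change of the control at r = -0.78 for H3K9me2 and -0.72 for Kbu, and the change of the pileup at 0.29 and -0.12. Ratio and control share a term by construction. If libraries of 1 CO2 level shared a control, the limma calls on the ratio do not take in a spread between controls.

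The ratio counts moved with scaling and with single libraries. Scaled to library totals, 28 wide peaks rose (11.2%, against 14.2% of all) and 106 fell (42.2%, against 28.8% of all) in H3K9me2. Before the authors' rounding down 53 rose (21.1%, against 35.3% of all) and 54 fell (21.5%, against 9.80% of all). Leaving out H3K9me2 high-CO2 replicate 1 gave 25 rises (9.96%, against 13.5% of all) and 9 falls (3.59%, against 0.954% of all). Leaving out replicate 2 gave 24 rises (9.56%, against 13.7% of all) and 16 falls (6.37%, against 1.26% of all). Leaving out Kbu high-CO2 replicate 1 gave 30 rises (12.0%, against 24.7% of all) and 89 falls (35.5%, against 15.6% of all). Leaving out its replicate 2 gave 31 rises (12.4%, against 27.0% of all) and 81 falls (32.3%, against 14.0% of all). In the authors' deposited table, whose status is an unadjusted p under 0.05 and whose direction is high over low CO2, 15 wide peaks (5.98%) are marked as H3K9me2 loss, against 7.73% of all peaks, and none as gain. For Kbu, 35 wide peaks (13.9%) in the authors' deposited table are marked as Kbu gain, that is higher at high CO2, against 2.93% of all peaks, and 21 (8.37%) as Kbu loss, against 15.6% of all peaks. An adjusted p in the authors' deposited table is given for 29 wide peaks in H3K9me2 and 69 in Kbu, of which 12 (4.78% of wide peaks, against 4.79% of all) and 16 (6.37%, against 10.1% of all) were under 0.05 and lower at high CO2. In Kbu 0 wide peaks, against 0.0162% of all, had one under 0.05 and were higher at high CO2. None of the 35 Kbu gains thus had an authors' adjusted p under 0.05, and how many of them were given one was not counted.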

How the data were processed

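ChIP-seq libraries of both marks were compared at low and high CO2. Trim Galore, BWA, Picard, deepTools and MACS2 are the tools listed in the submitters' processing notes. Their versions, settings and roles were not given in the sources used here. Per the file headers the authors deposited, for each library, a pileup signal, a control signal named lambda and a normalised signal. In 100% of peaks the normalised signal equalled, within 0.01 after multiplying back, the whole part of 10 times pileup over control, divided by 1 factor per library. In 100% of peaks the pileup was within 0.02 of a whole number of steps, with the step itself fitted to the values of its library, and that step was taken as 1 read. The authors also deposited a log2 fold change, a statistic (score), a p-value and an adjusted p-value. None of these is a count of reads per peak, so no count test was run.

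Low was compared with high CO2 by limma 3.58.1 in R 4.3.3 (mean trend, Benjamini-Hochberg adjustment over 6185 peaks, threshold 0.05) on log2 of the value plus 1, with no filter. Pileups were scaled to 1 geometric mean per library, and the deposited ratio was used as given. For the wide-minus-narrow differences 0.1 was added to the level before log2. limma's prior degrees of freedom were infinite in the ratio fits of either mark and 525 in the H3K9me2 pileup fit, against 2 residual ones. The small p-values of these fits thus rest on a spread shared over peaks. Prior degrees of freedom were 8.64 in the Kbu pileup fit and 14.6 for the difference between marks, against 2 and 4 residual ones. The fits were also run on simulated data with 1 spread for all peaks. That setting cannot show how the calls behave in these libraries. Other work used Python 3.11.15, NumPy 2.4.6, pandas 2.3.3 and Matplotlib 3.10.9. Alternatives covered scaling, rounding, pseudocount, filter, threshold, width limit, a replicate block and each library left out.

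Named peaks were the 5 widest, the 4 largest called rises and falls of each mark's pileup with the libraries of the groups apart after scaling, the 2 highest levels per group, the 2 lowest in Kbu at high CO2 and those next to the width limit. The peaks, the width limit and the tests were chosen with earlier results of these data known. No genome of the files' build was used here, so no sequence is given.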

Additional observations from a re-analysis of the deposited data

Results flagged for a closer look

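The CO2 change of the pileup differed between the marks at some wide peaks, by the limma interaction term over all 8 libraries (adjusted p under 0.05). It was more positive in Kbu at 22 (8.76%, against 5.50% of all peaks). It was more positive in H3K9me2 at 51 (20.3%, against 6.22% of all peaks). With libraries scaled to their lowest control value these counts were 4 (1.59%, against 0.437% of all) and 216 (86.1%, against 78.8% of all). Among the named wide peaks the difference, Kbu minus H3K9me2 on the log2 scale, was positive at peak3461 (2.33), peak2787 (1.58), peak814 (1.35), peak2792 (1.11) and peak5248 (0.61). It was negative at peak2729 (-1.69), peak1077 (-1.48), peak5367 (-1.45), peak2048 (-1.42), peak3847 (-1.17), peak2482 (-1.09) and peak34 (-1.01). In each mark these changes are centred on the bulk. Groups of 2 libraries were not tested for a library far from the others.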

How the results depend on the processing

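Levels of wide minus narrow peaks (0.36 and 0.10 log2 for H3K9me2 at low and high CO2, 0.39 and 0.29 for Kbu) kept their sign under other width limits, summaries and filters, but not always over the control of the same peak. In that order, where a value moved, they were 0.17, 0.23 (Kbu, low) and 0.28 (Kbu, high) with wide from 1200 bp, and 0.28, 0.17, 0.22 and 0.32 from 2000 bp. They were -0.19, -0.030, -0.20 and 0.13 over the control of the same peak. They were 0.40 and 0.31 (H3K9me2 low, Kbu high) with means, and 0.32, 0.058, 0.38 and 0.22 without the lowest 25% of peaks. With 1 library left out, wide-peak rises and falls ranged over 40 to 49 and 1 to 3 (H3K9me2 pileup), 80 to 110 and 43 to 85 (Kbu pileup), 24 to 36 and 9 to 57 (H3K9me2 ratio), 30 to 58 and 81 to 141 (Kbu ratio), and 10 to 21 and 32 to 54 (difference between marks). Scaling to the lowest control value gave 0 H3K9me2 pileup falls at wide peaks, against 0% of all. For the Kbu pileup it gave 33 rises (13.1%, against 3.61% of all) and 172 falls (68.5%, against 83.7% of all). For the difference between marks it gave 4 (1.59%, against 0.437% of all) and 216 (86.1%, against 78.8% of all). Library totals gave 106 H3K9me2 ratio falls (42.2%, against 28.8% of all). Without the lowest 25% of peaks there were 6 H3K9me2 ratio falls (2.39%, against 3.25% of all) and 90 Kbu ratio falls (35.9%, against 22.0% of all). H3K9me2 ratio falls were then no more frequent at wide peaks than over all peaks. At least a 1.5-fold change left 42 rises (16.7%, against 2.13% of all) and 1 fall (0.398%, against 0.194% of all) for the H3K9me2 pileup. For the Kbu pileup it left 45 (17.9%, against 5.19% of all) and 16 (6.37%, against 3.95% of all). For the Kbu ratio it left 25 (9.96%, against 20.1% of all) and 66 (26.3%, against 10.3% of all). An adjusted p under 0.01 left 1 H3K9me2 pileup fall (0.398%, against 0.243% of all). For the difference between marks it left 9 (3.59%, against 1.91% of all) and 32 (12.7%, against 2.22% of all). Pseudocounts of 0.1 and 5 moved no count by over 1.5 times. Replicates share only a number here: deviations of same-numbered libraries correlated at 0.039 to 0.12. The replicate block gave 80 and 3 (H3K9me2 pileup, 31.9% and 1.20%, against 4.56% and 1.20% of all). It gave 100 and 76 (Kbu pileup, 39.8% and 30.3%, against 22.2% and 26.1%). On the ratio it gave 42 and 67 (H3K9me2, 16.7% and 26.7%, against 26.9% and 13.3%) and 55 and 136 (Kbu, 21.9% and 54.2%, against 39.7% and 30.4%). The difference between marks had 21 and 44 (8.37% and 17.5%, against 4.41% and 5.16%). Of 37 called changes of named peaks, 20 passed in the same direction under every alternative run. Relative to the lowest control value, 5 Kbu rises changed sign: peak2482 (-0.17), peak34 (-0.16), peak2254 (-0.05), peak4256 (-0.17) and peak6010 (-0.22). The cause was not tested, beyond the shift of all peaks that this scaling gives. Few reads at the median wide peak limit the precision of H3K9me2.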
